A study of Mus musculus with 4 samples.

Results

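The claudins are a family of small membrane proteins whose extracellular loops line up between neighbouring epithelial or endothelial cells and form the strands of the tight junction. Some members close the paracellular route to ions, and others form pores for cations, anions or water, so that the set made by each nephron segment is known to shape what passes between its cells. The members named for this account were followed by gene symbol through mouse kidney cortex: Cldn1, Cldn2, Cldn3, Cldn4, Cldn5, Cldn7, Cldn8, Cldn10, Cldn16 and Cldn19. All 10 were found among the 21046 genes of the table, and they were chosen with earlier results of these data known.

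Nuclear RNA was counted in single nuclei of kidney cortex from C57BL/6J mice by droplet sequencing, where a random barcode (the unique molecular identifier, UMI) lets each captured RNA be counted once. The labels give 4 genotypes with 1 library each. These are Klf4deltaECNos3-/- (here Klf4 dEC Nos3 null), Klf4deltaEC (here Klf4 dEC), Nos3-/- (here Nos3 null) and Klf4flox/flox (here the control). Klf4 is a zinc-finger transcription factor, EC is read here as endothelial cells, and Nos3 is endothelial nitric oxide synthase. The Cre driver, age, sex, number of mice per library and whether the Nos3-/- mice also carry floxed Klf4 are points on which the sources used here say nothing. Each value, called a level, is the mean over the nuclei of 1 cluster in 1 library of UMIs per 10000 UMIs. With 1 library per genotype no test between genotypes exists, and intervals below are 95% counting intervals that leave out variation between mice.

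The table held 5491, 6883, 7004 and 6766 nuclei in the Klf4 dEC Nos3 null, Klf4 dEC, Nos3 null and control libraries, and these numbers were recovered by arithmetic from the averages. The recovered median UMIs per nucleus, averaged over clusters by their nuclei, were 5390, 4126, 2351 and 4753 in the same order of libraries. Nos3 null was the shallowest library. Of the 23 clusters the authors deposited, 20 could be named from marker genes that include no claudin, and each such name carries "-like". Of these, 6 are proximal tubule-like (clusters 0, 1, 3, 5, 6 and 12), 2 are thick ascending limb-like (2 and 4), and 1 is macula densa-like (19). The other named clusters are podocyte-like (15), thin limb-like (18), distal convoluted tubule-like (9), connecting tubule-like (11), principal cell-like (8), intercalated cell-like (14 and 16), urothelium-like (20), endothelial cell-like (10), stromal cell-like (13) and cycling cell-like (22). Clusters 7, 17 and 21 stay unnamed. Cluster 12 is shallow, with a median of 869 UMIs, and had 126 per 10000 of the abundant proximal RNA Kap, against 13.3 to 18.96 in the other proximal tubule-like clusters. In the endothelial cell-like cluster Klf4 was 0.824 in the Klf4 dEC Nos3 null library, 0.779 in Klf4 dEC and 0.445 in Nos3 null, against 0.621 in the control. Nos3 in that cluster was 2.07, 0.930, 1.52 and 1.26 in the same libraries. Both libraries labelled as lacking Klf4 had a higher Klf4 level than the control, and both labelled as lacking Nos3 a higher Nos3 level. These rest on few UMIs. Klf4 had 27.7 in Klf4 dEC Nos3 null and 32.1 in Klf4 dEC, against 26.0 in the control. Nos3 had 69.5 in Klf4 dEC Nos3 null and 61.8 in Nos3 null, against 52.9. No interval was computed, so a rise is not read from them. Where the deletions lie is not stated in the labels, and tags outside a deleted part check nothing, so each genotype name below means the library labelled that way.

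**Figure D1:**
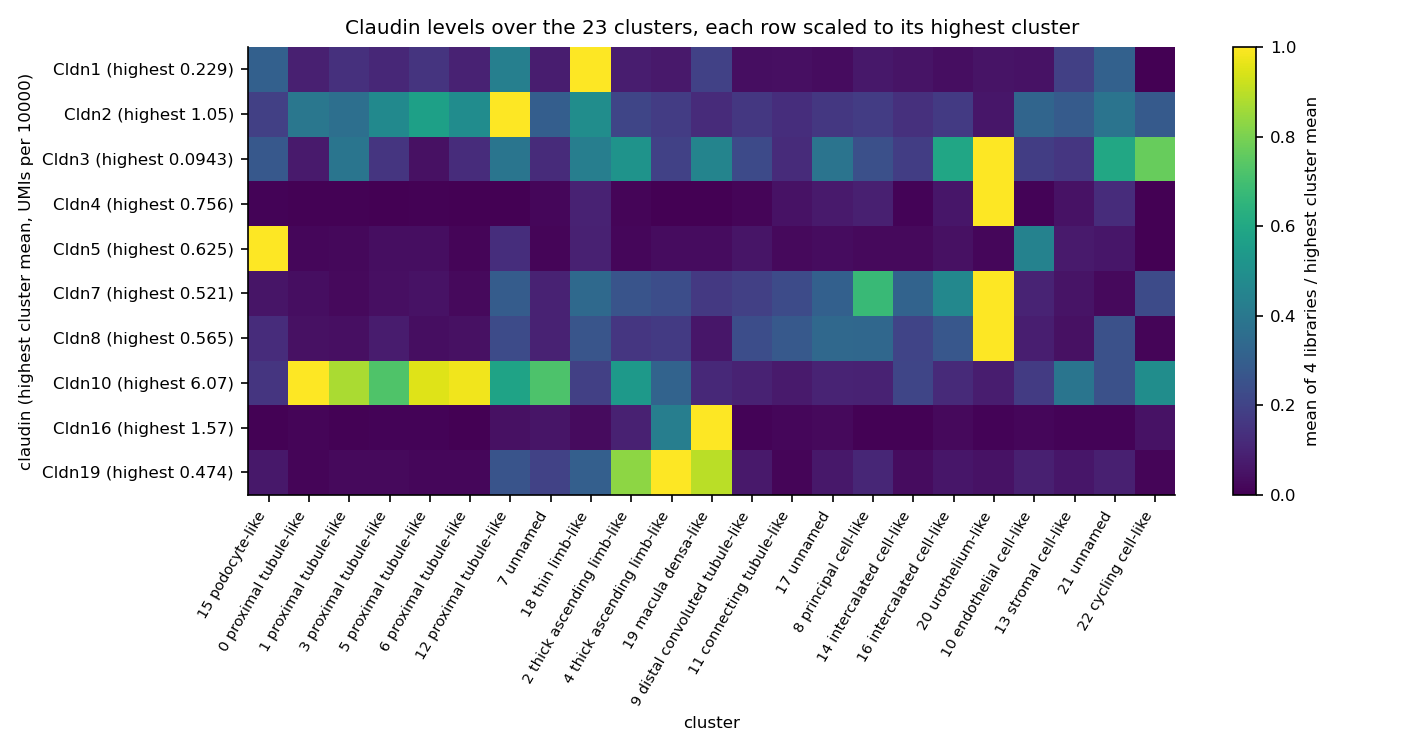
Mean level of each claudin over the 4 libraries (rows) in the 23 clusters (columns), divided by the claudin's own highest cluster mean, which is printed in UMIs per 10000. Bright cells mark proximal tubule-like clusters for Cldn10, cluster 19 and, less so, 4 for Cldn16, clusters 2, 4 and 19 for Cldn19, podocyte-like cluster 15 for Cldn5 and urothelium-like cluster 20 for Cldn4, Cldn7 and Cldn8, while Cldn3 rests on under 1 UMI in its highest cluster.

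Cldn10 is made from alternative first exons as 2 main forms, of which Cldn10a is known as an anion pore of the proximal tubule and Cldn10b as a cation pore of the thick ascending limb. The gene (ENSMUSG00000022132.15) spans chr14:118787908-118875489 on the plus strand of GRCm38, 87.6 kb, and a small RNA gene, n-R5s51, overlaps it on the minus strand. The 2 RefSeq start sites of Cldn10 lie 67.1 kb apart. The 250 bases before each are shown because the same symbol is read from both, and the tags counted per gene do not tell the forms apart. The windows are from RefSeq on GRCm38.p6, plus strand, at chr14:118787621-118787870 for the upstream start and chr14:118854700-118854949 for the downstream start. Capitals mark matches to 7 short motifs on either strand. The first was GTTAAT. The GC box was searched as GGGCGG, the KLF box as CACCC and the TATA box as TATAAA. The Grainyhead core was searched as AACCGG and the ERR site as AAGGTCA. The TFAP2 site was searched as GCCNNNGGC.
Cldn10 upstream start: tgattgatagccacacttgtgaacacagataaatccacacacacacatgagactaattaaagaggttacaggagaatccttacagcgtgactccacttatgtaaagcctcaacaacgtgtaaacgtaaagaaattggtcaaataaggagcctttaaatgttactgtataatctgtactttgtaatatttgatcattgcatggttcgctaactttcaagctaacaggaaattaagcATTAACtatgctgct
Cldn10 downstream start: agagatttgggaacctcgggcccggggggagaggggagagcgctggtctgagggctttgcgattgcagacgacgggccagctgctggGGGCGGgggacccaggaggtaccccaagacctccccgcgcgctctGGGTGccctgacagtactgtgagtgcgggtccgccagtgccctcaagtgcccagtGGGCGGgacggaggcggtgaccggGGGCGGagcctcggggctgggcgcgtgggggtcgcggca
The upstream window has 36.0% G and C and 1 GTTAAT match, which 6.43% of 32841 mouse windows of this length hold. The downstream window has 72.4% G and C, 3 GC boxes and 1 KLF box, held by 32.7% and 52.0% of all windows. The median G and C content of all windows is 52.4%. No 2 matches overlap in any window printed here.

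Cldn10 was highest in proximal tubule-like nuclei. In cluster 0 its level was 5.70 in Klf4 dEC Nos3 null, 5.98 in Klf4 dEC and 8.23 in Nos3 null, against 4.36 in the control. Nos3 null was the highest library there and the control the lowest. The means over libraries were 6.07 in cluster 0, 5.94 in cluster 6, 5.77 in cluster 5, 5.30 in cluster 1, 4.40 in cluster 3 and 3.52 in cluster 12. The thick ascending limb-like clusters had 3.25 in cluster 2 and 1.93 in cluster 4, and between these lay 2.97 in cycling cell-like and 2.37 in stromal cell-like nuclei. The macula densa-like cluster had 0.701. Clusters next to each other in this order overlapped over the 4 libraries in every case, while cluster 0 lay wholly above 16 other clusters. Unnamed cluster 7, whose markers are proximal and thick ascending limb genes together, had 4.37.

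No cluster was free of Cldn10, and the lowest mean was 0.429 in connecting tubule-like nuclei. To read these low levels, Cldn10 was divided by the summed level of 8 proximal tubule markers in the same cluster and library, and set to 1 in the deep proximal tubule-like clusters. In the 13 clusters that are not proximal, thick ascending limb, macula densa or cluster 7, this quotient averaged between 0.703 and 1.12, with a median of 0.825. Endothelial cell-like nuclei had 1.00 and podocyte-like nuclei had 0.772, and both are cell types that should lack Cldn10. These averages lay within those of the 6 proximal tubule-like clusters, 0.529 to 1.66. Single libraries spread more, for example 0.443 in cluster 16 in Klf4 dEC and 1.56 in cluster 10 in Klf4 dEC Nos3 null. How far Cldn10 in the 13 clusters is their own or comes with proximal RNA was not tested, so no expression is read from it there. Thick ascending limb-like cluster 2 had 6.84 in Klf4 dEC Nos3 null, 9.02 in Klf4 dEC and 1.27 in Nos3 null, against 8.56 in the control, and cluster 4 had 5.71, 4.39, 0.936 and 5.30. The quotient stood well above 1 in both clusters in 3 of 4 libraries. The 13 other clusters had 0.464 to 0.860 in Nos3 null, below both of its thick ascending limb-like values.

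**Figure D2:**
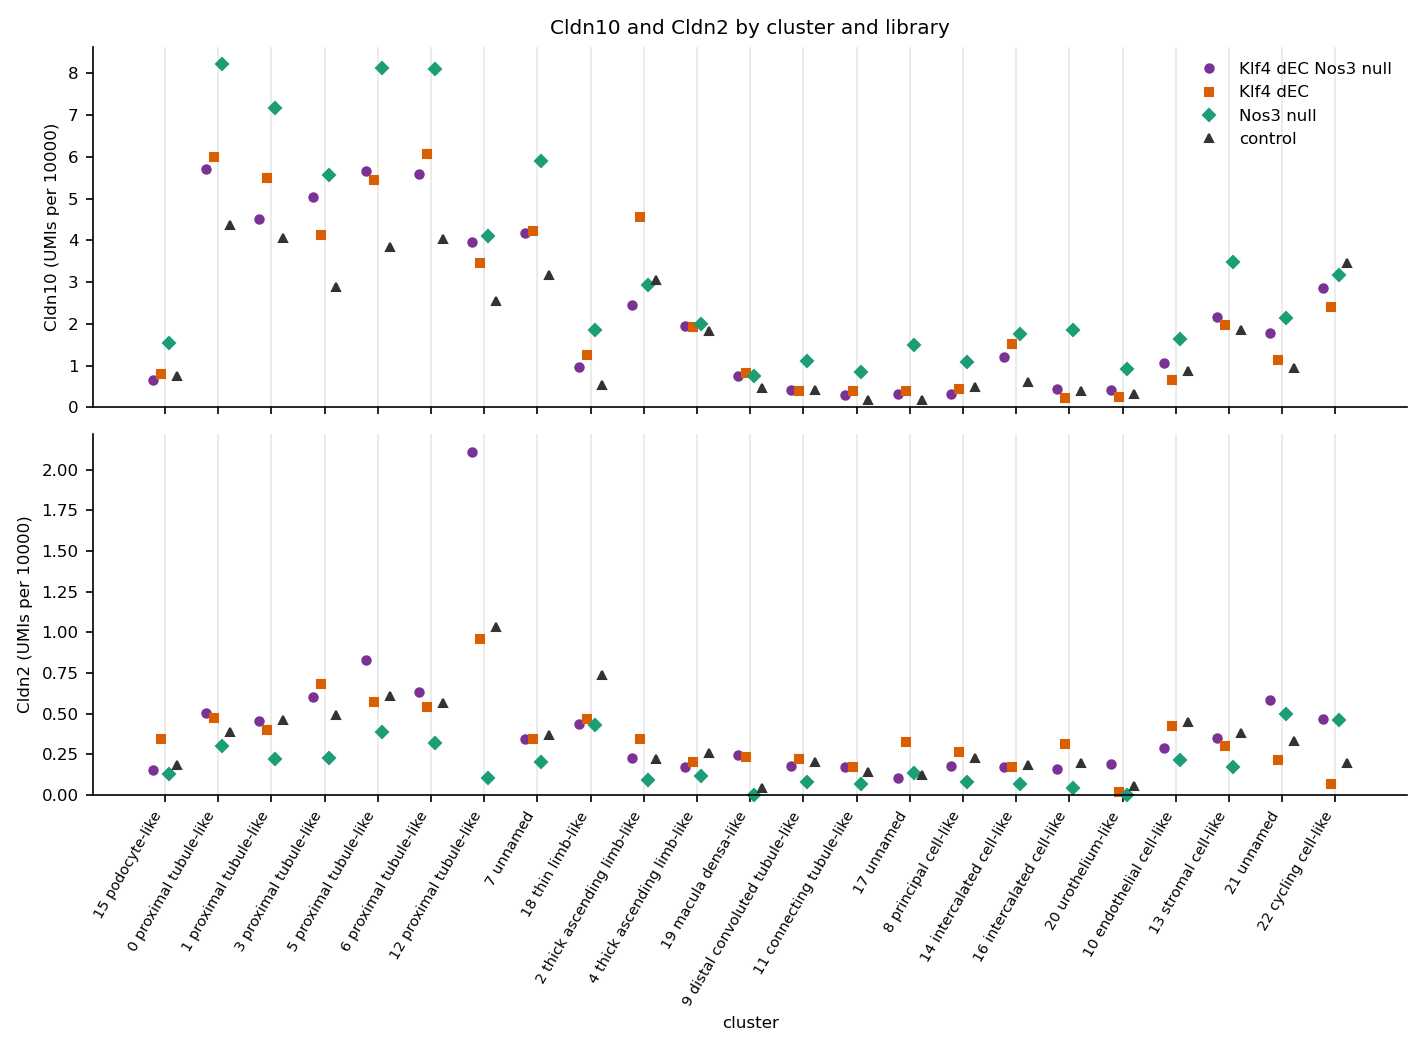
Levels of Cldn10 (upper panel) and Cldn2 (lower panel) in UMIs per 10000 by cluster, 1 point per library. Cldn10 is highest in proximal tubule-like clusters, where Nos3 null reaches 8.23 and the control 4.36, and Cldn2 is highest in cluster 12, at 2.11 in Klf4 dEC Nos3 null and 0.102 in Nos3 null.

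Cldn2, on chrX:139800828-139811386, forms the cation and water pore known for paracellular sodium uptake in the proximal tubule. It averaged 0.597 in proximal tubule-like cluster 5, with 0.828, 0.569, 0.384 and 0.608 in Klf4 dEC Nos3 null, Klf4 dEC, Nos3 null and the control. Clusters 6, 3, 0 and 1 averaged 0.512, 0.499, 0.416 and 0.383. Cluster 5 exceeded cluster 1 in 4 of 4 libraries, by 1.32-fold to 1.84-fold, and all 4 counting intervals left out equality. The highest mean, 1.05, belonged to the shallow cluster 12, where the libraries spread widely. That cluster had 2.11 in Klf4 dEC Nos3 null, 0.958 in Klf4 dEC and 0.102 in Nos3 null, against 1.04 in the control, from 18.8, 13.3, 2.57 and 11.1 UMIs. Without the Klf4 dEC Nos3 null library the mean of cluster 12 was 0.698.

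Thin limb-like cluster 18, named for the segment after the proximal tubule, also held Cldn2. Its levels were 0.434, 0.464, 0.429 and 0.738 in Klf4 dEC Nos3 null, Klf4 dEC, Nos3 null and the control, and the mean was 0.516. These overlapped those of cluster 5. Divided by Kap and set to 1 in the deep proximal tubule-like clusters, Cldn2 averaged 1.21 in cluster 18. By library it was 0.684 in Klf4 dEC Nos3 null, 0.568 in Klf4 dEC and 2.50 in Nos3 null, against 1.09 in the control. Kap itself differed there by -2.77 on the log2 scale for Nos3 null over the control. The 9 clusters compared are neither proximal, thick ascending limb, macula densa, thin limb nor clusters 7, 20, 21 and 22. In them the same quotient averaged between 0.353 and 0.453. Within Klf4 dEC it was 0.492 in podocyte-like nuclei, and within Nos3 null it reached 0.730. Divided by the summed proximal markers in place of Kap, Cldn2 was 5.38 in cluster 18 and 1.26 to 4.69 in those 9 clusters. Those 9 clusters thus lay below 1 with Kap and above 1 with the markers, and whether their Cldn2, 0.342 in endothelial cell-like nuclei, is background cannot be read from it. With the markers, cluster 18 was also below some of the 9 clusters within a library, at 3.76 against 9.03 in cluster 17 in Klf4 dEC. Proximal tubule-like cluster 12 had 0.268 per Kap and 2.52 per summed markers. The promoter window of Cldn2 holds 1 TATA box, as 12.4% of windows do, and 1 KLF box.

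Cldn16 and Cldn19 are partners in the thick ascending limb, where their complex is known for paracellular calcium and magnesium reabsorption, and loss of either gene causes renal magnesium wasting in humans. Cldn16 lies at chr16:26463135-26482765, with 91293 bases between it and Cldn1. Cldn19 lies at chr4:119255414-119262438 and is overlapped on the minus strand by Gm12927, and the strand setting of the counting is not given, so its values are less certain. Their upstream windows are shown because the pair is found together in the same clusters. They are chr16:26462885-26463134 and, for the first Cldn19 start, chr4:119255191-119255440, both plus strand, RefSeq, GRCm38.p6.
Cldn16: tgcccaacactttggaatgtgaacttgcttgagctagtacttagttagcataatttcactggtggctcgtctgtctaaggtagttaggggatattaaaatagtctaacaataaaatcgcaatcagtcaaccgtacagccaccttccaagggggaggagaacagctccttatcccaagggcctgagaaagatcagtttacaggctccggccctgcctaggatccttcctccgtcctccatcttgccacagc
Cldn19: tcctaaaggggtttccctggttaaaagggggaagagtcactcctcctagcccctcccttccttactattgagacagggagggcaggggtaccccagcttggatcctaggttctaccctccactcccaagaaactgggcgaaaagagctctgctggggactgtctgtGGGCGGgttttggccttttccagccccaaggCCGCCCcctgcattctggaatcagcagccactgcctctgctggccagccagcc
The Cldn16 window, with 48.0% G and C, holds none of the 7 motifs. The Cldn19 window, with 59.2% G and C, holds 2 GC boxes.

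Cldn16 was highest in the macula densa-like cluster 19. The macula densa is the patch of tubule cells that senses salt beside the glomerulus. Of its 5 markers, 3 reached 0.5 in cluster 19, namely Robo2 at 14.3, Nos1 at 2.45 and Pappa2 at 1.20, against 0.282, 0.00956 and 0.0118 in cluster 2. Ptgs2 and Avpr1a stayed at 0.115 and 0.0227 in cluster 19, and Robo2 was 38.0 in podocyte-like nuclei. The thick ascending limb genes Egf and Umod averaged 147 and 14.5 in cluster 19, against 127 and 27.3 in cluster 4. The name thus rests on 3 markers beside thick ascending limb genes. Cldn16 levels in cluster 19 were 2.36 in Klf4 dEC Nos3 null, 1.41 in Klf4 dEC and 0.957 in Nos3 null, against 1.55 in the control. Thick ascending limb-like cluster 4 had 0.913, 0.745, 0.498 and 0.533 in the same libraries. Thick ascending limb-like cluster 2 had 0.123, 0.163, 0.197 and 0.0955. The 3 clusters did not overlap over the libraries. Of the genes measured, 6.27% were wholly higher in cluster 19 than in cluster 4, and 4.11% in cluster 4 than in cluster 2. Within libraries, cluster 4 exceeded cluster 2 by 2.53-fold to 7.45-fold, with 4 of 4 intervals leaving out equality, and cluster 19 exceeded cluster 4 by 1.90-fold to 2.91-fold, with 3 of 4. Higher in cluster 19 within each library were 14% of genes. The next cluster was unnamed cluster 7 at 0.0906, and every other cluster averaged at most 0.0777.

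Cldn10 had the opposite order over the same clusters. It was 2.46, 4.56, 2.92 and 3.06 in cluster 2, 1.96, 1.93, 1.99 and 1.83 in cluster 4, and 0.756, 0.831, 0.741 and 0.474 in cluster 19, in Klf4 dEC Nos3 null, Klf4 dEC, Nos3 null and the control. These did not overlap either, and 3.13% of genes were wholly higher in cluster 2 than in cluster 4 and 9.12% in cluster 4 than in cluster 19. Higher within each library, as Cldn10 was, were 16.7% of genes in cluster 2 over cluster 4 and 20.4% in cluster 4 over cluster 19. The Cldn16 to Cldn10 quotient was 0.0313 to 0.0674 in cluster 2, 0.250 to 0.466 in cluster 4 and 1.29 to 3.27 in cluster 19. Each library showed that order. Cldn10 per summed proximal markers was 2.15, 1.66, 0.375 and 1.14 in cluster 19 in those libraries. The 13 clusters where no expression is read had at most 1.56 in Klf4 dEC Nos3 null and 1.12 in Klf4 dEC, both below cluster 19. They had at least 0.464 in Nos3 null, above cluster 19, and up to 1.41 in the control. Cldn10 in cluster 19 is thus not told apart from theirs in every library, and the Cldn16 to Cldn10 quotient of cluster 19 rests on it. The summed markers of the thick ascending limb averaged 276, 366 and 333 in clusters 2, 4 and 19, and the sodium-potassium-chloride cotransporter gene Slc12a1 averaged 191, 183 and 153.

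Some other genes of the limb divided clusters 2 and 4 as Cldn16 did, and some did not. Casr, the calcium-sensing receptor, averaged 6.36 in cluster 4 and 1.79 in cluster 2. Egf, the growth factor precursor, averaged 127 and 43.7, and Umod, the gene of uromodulin, 27.3 and 11.4. All 3 were higher in cluster 4 in 4 of 4 libraries, as were 17.8% of genes. Ptger3, a prostaglandin receptor, averaged 9.74 in cluster 4 and 12.3 in cluster 2 and was higher in cluster 4 in 1 of 4 libraries. Slc12a1, at 183 and 191, was likewise higher in cluster 4 in 1 of 4 libraries. Kcnj1, a potassium channel gene, had its highest mean, 5.22, in cluster 2. The remaining markers of the limb were not compared here.

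Cldn19 did not separate these clusters. It was 0.517, 0.275, 0.330 and 0.454 in cluster 2, 0.592, 0.514, 0.302 and 0.488 in cluster 4, and 0.445, 0.376, 0.136 and 0.745 in cluster 19, in Klf4 dEC Nos3 null, Klf4 dEC, Nos3 null and the control. The ranges overlapped. Cluster 4 over cluster 2 ran from 0.916-fold to 1.87-fold, and 1 of 4 intervals left out equality. Nos3 null was the lowest library in clusters 4 and 19, though in cluster 19 its value is 1.71 UMIs, where 3 UMIs equal 0.239. The next cluster, thin limb-like 18, averaged 0.143 and overlapped none of cluster 2. Values in cluster 19 rest on 54 to 68 nuclei per library.

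**Figure D3:**
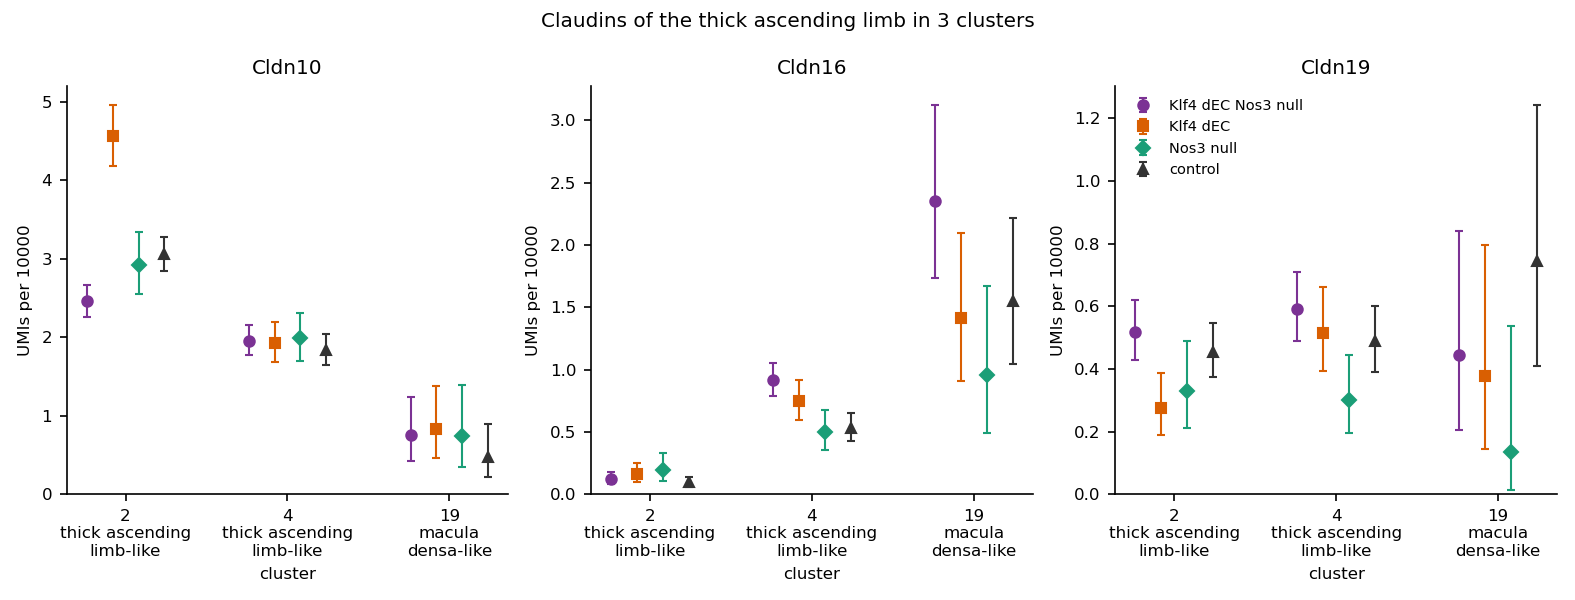
Levels in UMIs per 10000 of Cldn10, Cldn16 and Cldn19 in clusters 2, 4 and 19, with 1 point per library and 95% Poisson counting intervals as bars. Cldn10 falls and Cldn16 climbs across clusters 2, 4 and 19 in each library, with Cldn16 between 0.0955 and 0.197 in cluster 2 and between 0.957 and 2.36 in cluster 19, while the Cldn19 points overlap.

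Cldn5 seals the junctions of endothelial cells and is also known in podocytes, the filter cells of the glomerulus. It lies at chr16:18776847-18778262. Its upstream window, chr16:18776597-18776846, plus strand, RefSeq, GRCm38.p6, is shown because Klf4, the factor named in the labels, binds CACCC-type boxes.
Cldn5: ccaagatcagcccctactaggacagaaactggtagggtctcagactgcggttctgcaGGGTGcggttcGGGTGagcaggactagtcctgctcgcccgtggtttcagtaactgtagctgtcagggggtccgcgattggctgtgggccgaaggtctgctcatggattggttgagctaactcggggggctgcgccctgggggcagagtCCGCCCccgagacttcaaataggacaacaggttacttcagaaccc
The window holds 2 KLF boxes and 1 GC box. A match of these letters is not a binding site, and 52.0% of all windows hold a KLF box.

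Cldn5 was highest in podocyte-like nuclei, at 0.889 in Klf4 dEC Nos3 null, 0.488 in Klf4 dEC and 0.279 in Nos3 null, against 0.842 in the control. Endothelial cell-like nuclei had 0.420, 0.371, 0.130 and 0.189 in those libraries. The podocyte-like level was higher within each of the 4 libraries, as it was for 17.9% of genes, by 1.31-fold to 4.47-fold, and 2 of 4 intervals left out equality. The ranges of the clusters overlapped. Every other cluster averaged at most 0.0818. Of the endothelial markers, 0 of 10 reached 0.5 in the podocyte-like cluster, and their sum there was 0.650 to 1.05, against 67.4 to 130 in the endothelial cell-like cluster. Podocyte markers in the endothelial cell-like cluster summed to 12.6 to 23.7, with 4 of 8 at 0.5 or more, against 851 to 1069 in podocyte-like nuclei. The part of RNA from other cell types in the Cldn5 levels of either cluster was not tested.

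Within the endothelial cell-like cluster Cldn5 did not reach the filter of 0.5 in any library, so it enters no count of changes. On the log2(level + 0.1) scale it differed by 0.71 for Klf4 dEC over the control, with an interval of -0.35 to 2.43 for the plain ratio. It differed by -0.32 for Nos3 null over the control, and Klf4 dEC Nos3 null differed by 0.14 from Klf4 dEC and by 0.85 from the control, all with intervals that held 0. Klf4 dEC Nos3 null differed from Nos3 null by 1.17, from 14.1 and 5.31 UMIs, with an interval of 0.16 to 3.46. In podocyte-like nuclei Nos3 null stood below the control by -1.31 (-2.83 to -0.50) and Klf4 dEC Nos3 null above Nos3 null by 1.38 (0.60 to 2.89).

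**Figure D4:**
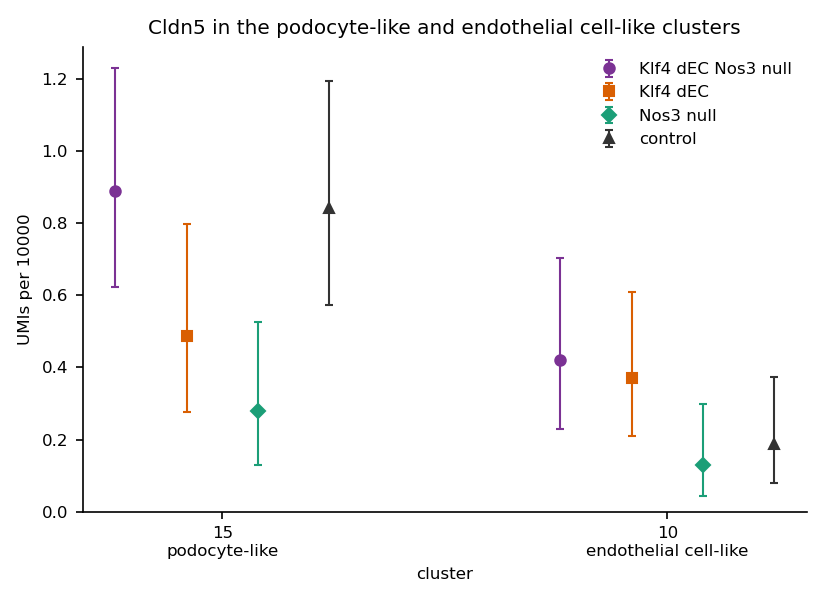
Cldn5 in UMIs per 10000 in the podocyte-like and endothelial cell-like clusters, with 1 point per library and 95% Poisson counting intervals. In each library the podocyte-like point stands above the endothelial one, most widely in the control, at 0.842 and 0.189.

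The claudins of the distal nephron and collecting duct were sparse. Cldn7, known from the collecting duct, was detected most evenly in principal cell-like nuclei, at 0.321, 0.461, 0.311 and 0.323 in Klf4 dEC Nos3 null, Klf4 dEC, Nos3 null and the control. That exceeded distal convoluted tubule-like nuclei in 4 of 4 libraries, by 2.66-fold to 5.63-fold, and 4 of 4 intervals left out equality. The same order held for 31.3% of genes. Intercalated cell-like clusters 16 and 14 averaged 0.244 and 0.165, and the principal cell-like level was higher than that of cluster 16 in 3 of 4 libraries, with no interval that left out equality. The 5 proximal tubule-like clusters other than cluster 12 had means of at most 0.0263.

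Cldn8, known to carry Cldn4 to the junction and to form a chloride channel with it in the collecting duct, averaged 0.191 in unnamed cluster 17, 0.188 in principal cell-like cluster 8 and 0.158 in connecting tubule-like cluster 11. Principal cell-like nuclei had 0.346 in Klf4 dEC Nos3 null, 0.180 in Klf4 dEC and 0.0235 in Nos3 null, against 0.203 in the control. The Nos3 null value is under 1 UMI, and 3 UMIs there equal 0.103. Cldn4 averaged 0.0677 in principal cell-like nuclei and 0.0548 in cluster 17, from 24.9 and 6.17 UMIs in all libraries together. Cldn3, a sealing claudin, reached no more than 0.0943 in any cluster mean. That mean, in cluster 20, comes from the 12 nuclei of Nos3 null and is 0 without that library, and 73 of its 92 values rested on under 3 UMIs. Its gene overlaps Wbscr25 on the other strand.

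The urothelium-like cluster 20, an epithelium of the urinary tract, held the highest means of Cldn4, Cldn7 and Cldn8. Cldn4 was 0.481 in Klf4 dEC Nos3 null, 0.720 in Klf4 dEC and 1.75 in Nos3 null, against 0.0750 in the control, from 20.0, 16.1, 3.96 and 1.61 UMIs. Cldn7 was 0.423, 1.08, 0 and 0.586, and Cldn8 was 0.900, 0.472, 0 and 0.889. The 2 zeros of Nos3 null come from 12 nuclei, in which 3 UMIs equal a level of 1.32, so they lie within what that depth cannot resolve and give no fold. The Cldn4 mean was 0.756 with all libraries and 0.425 without Nos3 null. The Cldn7 mean was 0.521 with all libraries and 0.336 without Klf4 dEC. Urothelial markers summed to 16.8 to 30.8 in cluster 20, with 8 of 9 at 0.5 or more.

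Cldn1, a sealing claudin that marks the parietal cells of Bowman's capsule, was highest in thin limb-like cluster 18. It was 0.250, 0.150, 0.390 and 0.125 in Klf4 dEC Nos3 null, Klf4 dEC, Nos3 null and the control, from 21.8 UMIs in all. Those levels were wholly above 19 other clusters, of which some are too shallow to show them. In cluster 20, for example, 3 UMIs equal 1.32 in Nos3 null. Cluster 18 exceeded podocyte-like cluster 15 in 3 of 4 libraries, and 1 of 4 intervals left out equality. The second-ranked marker list of cluster 18 was that of parietal epithelial cells, with 4 of 8 markers at 0.5 or more. Parietal markers summed to 23.7, 31.4, 23.5 and 23.7 in Klf4 dEC Nos3 null, Klf4 dEC, Nos3 null and the control. Thin limb markers summed to 51.8, 17.1, 5.82 and 40.3 in the same libraries. In Klf4 dEC and Nos3 null the thin limb sum was thus below the parietal one, and the name is less certain there. The part of either cell type in the Cldn1 level was not tested.

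The genes whose pattern over the 23 clusters was most like each claudin were ranked by Pearson's r of log2(level + 0.1) among 5144 genes, as a description, since clusters share libraries and depth. For Cldn10 these were Papss2, Nr1h4, Tef, Ppara and Itgb8, with r of 0.92 to 0.95. Among the nearest to Cldn2 were Akr7a5, Nat8f1, Tmem27 and Tmem174, at 0.88 to 0.89, each highest in cluster 12. Cldn16 ranked with Shd, Cntn5, Enox1, Gm6994 and Rps6ka6, at 0.90 to 0.94, each highest in the macula densa-like cluster. Cldn5 ranked with Tspan2, Sema3g, Podxl, Nebl and Nes, at 0.95 to 0.97, each highest in podocyte-like nuclei. Cldn4 ranked with Wnt4, Il18r1, Homer2, Liph and Sprr1a (0.91 to 0.94), Cldn7 among others with Dsp, Mal2, Myo5c and Atp10b (0.88 to 0.95), and Cldn8 with Ikzf2, Wipf2, Arf3, Arpc1a and Commd10 (0.88 to 0.91). These rankings depended on the measure. Under Spearman's rho, 0 of the 5 genes remained for each of Cldn4, Cldn5 and Cldn16, and 1 to 3 for the other claudins. With linear values 0 remained for Cldn10, 1 each for Cldn5 and Cldn7, and 2 to 4 for the others.

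Between genotypes, claudin values were compared in each cluster where the higher library reached 0.5, and a log2 difference of 1 or more either way was counted as past the limit. For Klf4 dEC over the control, 4 of 31 claudin values were past it, all higher, against 7.0% of all gene and cluster values. They were Cldn10 in intercalated cell-like cluster 14 (1.51 against 0.606) and thin limb-like cluster 18 (1.26 against 0.528), Cldn7 in intercalated cell-like cluster 16 (0.527 against 0.157) and Cldn4 in urothelium-like cluster 20. Proximal markers differed by 1.12 in cluster 14 and 0.30 in cluster 18 in that comparison, beside 1.19 and 1.11 for Cldn10, and their part in it was not tested. With Klf4 dEC Nos3 null set over the control, 0 of 32 values were past it, against 7.25% of all values. With the same library set over Klf4 dEC the count was 4 of 32, against 8.07%, namely Cldn2 higher in clusters 12 and 21 and Cldn7 lower in clusters 16 and 20. The median log2 difference of the claudin values was 0.40, 0.28 and 0.10 in these comparisons, and -0.02, 0.07 and 0.10 for all values.

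Comparisons with the Nos3 null library had more values past the limit. Against the control, 15 of 35 claudin values were past the limit, 10 higher and 5 lower, where 15.1% of all values were. Of the 15, 11 had counting intervals that left out 0. Cldn10 made 9 of the 15, all higher, in clusters 5, 9, 11, 14, 16, 17, 18, 20 and 21. All of these but cluster 5, which is 8 values, are clusters where no Cldn10 expression is read. The other 6 of the 15 were Cldn4 higher in cluster 20, and Cldn2 in cluster 12, Cldn5 in cluster 15, Cldn19 in cluster 19 (0.136 against 0.745) and Cldn7 and Cldn8 in cluster 20 lower. The Nos3 null value of Cldn19 is 1.71 UMIs, where 3 UMIs equal 0.239, so its size is not resolved. With only clusters of at least 100 nuclei in both libraries, 7 of 22 were past it, against 9.07% of all values at that setting. When Klf4 dEC Nos3 null was set over Nos3 null, 12 of 36 values were past the limit, 5 higher and 7 lower, against 16.7% of all values. Of the 12, 10 had counting intervals that left out 0. Cldn10 made 6 of the 12, all lower and all outside the proximal tubule-like clusters. Cldn16 was higher in the macula densa-like cluster (2.36 against 0.957), Cldn2 in clusters 3 and 12, Cldn5 in cluster 15 and Cldn8 in cluster 20, and Cldn4 was lower in cluster 20. These 2 comparisons share the Nos3 null library. Cldn7 and Cldn8 in cluster 20, counted here, rest on the zeros in 12 nuclei.

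Outside the proximal tubule, Cldn10 and proximal markers were both mostly higher in Nos3 null than in the control. Over the 16 clusters that are neither proximal tubule-like nor cluster 7, Cldn10 differed by a median of 1.06 for Nos3 null over the control, with 14 of 16 above 0. The median difference of the proximal markers in those clusters was 1.19, and that of mitochondrial RNA was -1.43. For Klf4 dEC over the control, the medians of Cldn10 and of the markers in those clusters were 0.10 and -0.03. For Klf4 dEC Nos3 null they were 0.23 and -0.29 over the control, -0.76 and -1.64 over Nos3 null, and -0.05 and -0.34 over Klf4 dEC. In thick ascending limb-like clusters 2 and 4, Cldn10 differed by -0.06 and 0.11 while proximal markers differed by 1.54 and 1.44. The part of proximal RNA in the Cldn10 values of the other clusters was not tested.

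**Figure D5:**
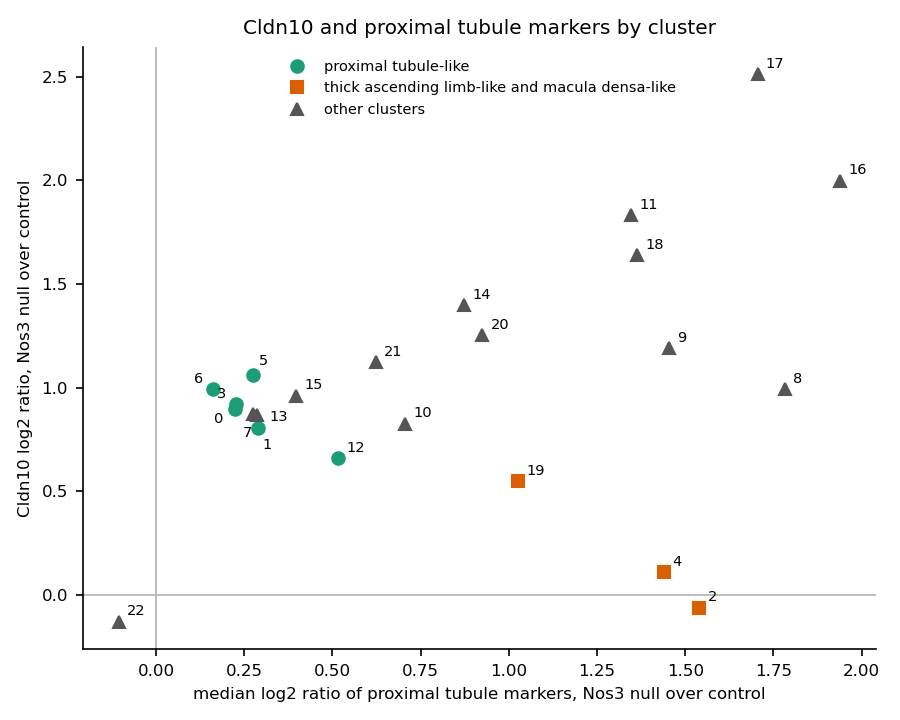
Cldn10 log2 difference (vertical) against the median log2 difference of proximal tubule markers (horizontal), both Nos3 null over control, 1 numbered point per cluster. Proximal tubule-like clusters sit at 0.66 to 1.06 for Cldn10 with markers at 0.16 to 0.52, most other clusters climb along both axes, and thick ascending limb-like clusters 2 and 4 lie near 0 for Cldn10.

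Inside the proximal tubule-like clusters Cldn10 was higher than in the control in each of the other libraries, and these 3 comparisons share the control. Over the 6 clusters its levels ran from 3.96 to 5.70 in Klf4 dEC Nos3 null, from 3.46 to 6.06 in Klf4 dEC, from 4.10 to 8.23 in Nos3 null and from 2.56 to 4.36 in the control. The median log2 difference from the control was 0.50, 0.47 and 0.91 in those 3 libraries, and the control was the lower one in 6 of 6 clusters each time. Among genes that passed the filter in all 6, 19.6%, 12.5% and 22.8% were higher in all 6, so the direction alone is common. A median as large as that of Cldn10 was found in 5.18%, 2.45% and 2.09% of those genes. Proximal markers differed by -0.03, 0.15 and 0.25, and mitochondrial RNA by 0.08, 0.11 and -1.24, and their part in the Cldn10 values was not tested. Klf4 dEC Nos3 null had less Cldn10 than Nos3 null in 6 of 6 clusters, by a median of -0.52, where 20.7% of genes were lower in all 6. It had more than Klf4 dEC in 3 of 6, with a median of -0.01, where 19.9% of genes were higher in all 6. Cldn2 had another order over the same clusters. In Klf4 dEC Nos3 null it was above the control in clusters 0, 3, 5, 6 and 12, for example 0.828 against 0.608 in cluster 5, and in Klf4 dEC in clusters 0 and 3. In Nos3 null it was below the control in all 6, for example 0.384 against 0.608 in cluster 5. Kap was lower there by 1.14 to 2.39 on the log2 scale in the 6 clusters. Among genes that passed the filter in all 6, 9.56% were lower in all 6. Cldn2 is not among those genes, since cluster 1 had 0.220 in Nos3 null and 0.461 in the control.

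Lists of related genes, of tight junction partners, claudin regulators and transport genes, were read in the cluster where each gene was highest. Of 30 tight junction partners in the table, 27 reached a cluster mean of 0.5. Scaffolds and adhesion proteins divided by cell type, with Tjp1 (8.96), Magi2 (802) and Ildr2 (7.35) highest in podocyte-like nuclei, Ocln (2.62) and Cgnl1 (19.3) in thick ascending limb-like cluster 4, and Jam2 (1.39), Jam3 (1.86) and Esam (1.53) in endothelial cell-like nuclei. Jam2, an adhesion molecule of endothelial junctions, was 2.40 in Klf4 dEC Nos3 null, 1.09 in Klf4 dEC and 0.925 in Nos3 null, against 1.15 in the control. It was the partner gene past the limit in all 3 comparisons of Klf4 dEC Nos3 null. In Klf4 dEC Nos3 null over the control it was the 1 of 27 partners past the limit, against 14% of all genes. In Klf4 dEC over the control 1 of 26 was, Ildr1 lower, against 12%. In Nos3 null over the control 3 of 27 were, the scaffolds Magi3, Mpdz and Mpp5, all lower by 1.03 to 1.07 on the log2 scale, against 23.8%. In Klf4 dEC Nos3 null over Nos3 null, Jam2 and Esam were higher and Ildr1 lower, 3 of 27, against 28.6%, and over Klf4 dEC 1 of 27, against 16.3%.

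Of 13 claudin regulators, 12 reached 0.5. In Klf4 dEC over the control 1 of 12 was past the limit, against 12% of all genes. In Nos3 null over the control 2 of 12 were, against 23.8%. For Klf4 dEC Nos3 null, 2 of 12 were over Nos3 null, against 28.6%, and 0 of 12 over Klf4 dEC and over the control, against 16.3% and 14%. Past the limit were Pax2, a collecting duct transcription factor, in Klf4 dEC over the control (26.0 against 12.4 in principal cell-like nuclei), and Grhl2, an activator of claudin genes, and the kinase Sgk1 in the comparisons with Nos3 null. Grhl2 in intercalated cell-like cluster 16 was 3.37 in Klf4 dEC Nos3 null, 2.83 in Klf4 dEC and 1.56 in Nos3 null, against 3.41 in the control. Sgk1 is listed at 0 in the 12 Nos3 null nuclei of cluster 20 and gives no fold. Casr, whose signal is known to act on Cldn16 and Cldn14, was within the limit in all 5 comparisons, as were Wnk1, Wnk4 and Klhl3. Of 13 transport genes of the segments, Aqp2, the vasopressin-regulated water channel of principal cells, was 11.9 in Klf4 dEC Nos3 null, 6.88 in Klf4 dEC and 4.68 in Nos3 null, against 3.21 in the control, and was past the limit in 3 comparisons. Kcnj1, the apical potassium channel, was 6.78 in Klf4 dEC against 3.22 in the control in cluster 2, and the exchanger gene Slc9a3 16.4 against 7.41. Umod in cluster 4 was 36.7 in Klf4 dEC Nos3 null against 13.4 in Nos3 null. Aqp1, itself a marker behind the thin limb-like name, was 6.73, 3.54, 0.784 and 4.75 in cluster 18 in Klf4 dEC Nos3 null, Klf4 dEC, Nos3 null and the control. Thus 3 of 13 were past the limit in Klf4 dEC over the control, against 12% of all genes, and 3 of 13 in Klf4 dEC Nos3 null over Nos3 null, against 28.6%. In each other comparison 1 of 13 was, against 14% to 23.8% of all genes.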

How the data were processed

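Per the labels' protocols, nuclei were released from frozen kidney cortex and run on the 10X Chromium system. Cell Ranger, Seurat and the mm10 build are named per the submitters' processing notes. The treatment of clusters, doublets, filters, introns and strand is not given there or in the labels. The deposited table holds a normalized signal per the file headers and values, 21046 genes in 92 columns (23 clusters in 4 libraries), each column summing to 10000, and 0 columns were left over. Nuclei numbers and the value of 1 UMI were recovered from the reciprocals of recurring low values and are inferred; at least 84.5% of the values used divided by the number taken. Depth ranged from 12 to 891 nuclei per column. Poisson intervals for levels and Clopper-Pearson intervals for ratios, both 95%, cover counting error only and rest on these effective UMIs, and the recovery was tested on simulated columns. Log2 differences use a pseudocount of 0.1 (intervals use none), a filter of 0.5 in the higher library and a limit of 1, with no test at 1 library per genotype. Levels were compared between clusters and libraries, not between genes. Names need a marker list that leads the next by 0.4 scaled units with 3 markers detected, and cluster 7 was left unnamed; both choices followed a look at the values. The members, lists and tests were chosen with earlier results of these data known. All 10 members are named; list genes are named where they pass the limit in their highest cluster, and Tjp1, Magi2, Ildr2, Ocln, Cgnl1, Jam3, Casr, Wnk1, Wnk4 and Klhl3 were named after their values were seen. Some genes that these rules name are not reported here. Gene positions are from GENCODE vM21 (GRCm38) and promoter windows from RefSeq, with 9 of 10 members matched. Alternatives were other pseudocounts, filters, scalings, libraries and likeness measures. Python 3.11.15, pandas 2.3.3, numpy 2.4.6, scipy 1.17.1 and matplotlib 3.10.9 were used.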

Additional observations from a re-analysis of the deposited data

Results flagged for a closer look

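Cldn4 in the urothelium-like cluster differed in opposite directions between the libraries labelled with and without Klf4 dEC, depending on the Nos3 label, and the difference was not tested. It was 2.23 higher on the log2 scale for Klf4 dEC over the control (16.1 against 1.61 UMIs, the last under the floor of 3), and lower, at -1.67, when Klf4 dEC Nos3 null was set over Nos3 null (20.0 against 3.96 UMIs, the last from 12 nuclei), with a counting interval of -3.45 to 0.16 that holds 0. Cldn2 in the shallow proximal tubule-like cluster 12 differed in opposite directions between the libraries labelled with and without Nos3 null, depending on the Klf4 label, which was likewise not tested. It was lower, at -2.49, for Nos3 null over the control (2.57 against 11.1 UMIs, the first under the floor), and 1.06 higher when Klf4 dEC Nos3 null was set over Klf4 dEC (18.8 against 13.3 UMIs). In the endothelial cell-like cluster, neither Klf4 nor Nos3 was lower than in the control in the libraries labelled as lacking it.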

How the results depend on the processing

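No paired analysis was possible because each genotype has 1 library. The counts of claudin values past the limit depended on the filter and the pseudocount. For Klf4 dEC over the control the count was 1 at a pseudocount of 0.5, 2 with a filter at 1 and 14 with no filter, against 4 in the report. For Nos3 null over the control it was 9, 9 and 31 under those settings and 7 where both libraries had at least 100 nuclei, against 15. With Klf4 dEC Nos3 null set over Nos3 null it was 5 at a pseudocount of 0.5, 38 with no filter and 7 with at least 100 nuclei, against 12. With that library set over Klf4 dEC it was 0 at a pseudocount of 0.5, 2 with a filter at 1, 20 with no filter and 2 with at least 100 nuclei, against 4. With it set over the control it was 1 at a pseudocount of 0.02 and 9 with no filter, against 0. With no filter the counts are out of 214, 211, 217, 218 and 221 values, beside 5.58%, 10.6%, 11.6%, 6.18% and 5.56% of all values, in the order above. At a pseudocount of 0.5 the first 4 shares of all values were 1.85%, 6.42%, 7.42% and 2.35%. With a filter at 1 the counts given are out of 17, 23 and 18 values, beside 5.29%, 13.5% and 6.65% of all values. With at least 100 nuclei they are out of 22, 24 and 23, beside 9.07%, 11.2% and 4.88%. At a pseudocount of 0.02 the last share was 9.28%. The cause was not tested, beyond the fewer or more values each filter keeps. Median-ratio rescaling, which shifted cluster medians by -0.16 to 0.12 on the log2 scale, kept all 5 counts within 1.5 times. The 5 endothelial Cldn5 differences kept their direction in 15 of 15 alternatives, but their size depended on the pseudocount: at 0.5, Klf4 dEC Nos3 null over Nos3 null was 0.55 against 1.17, and Klf4 dEC over the control 0.34 against 0.71. Of the 35 genes most like a claudin, 8 remained under Spearman's rho and 15 with linear values. Levels that rest on under 3 UMIs, which is 61 or more of the 92 values for Cldn1, Cldn3, Cldn4, Cldn5, Cldn16 and Cldn19 and 41 for Cldn8, cannot be told from 0.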

Other observations

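Of 17 further claudin and claudin-domain genes, 12 were in the table and 0 reached a cluster mean of 0.5. Cldn15, known as a cation pore of the intestine, was the endothelial one. Its levels in endothelial cell-like nuclei were 0.717 in Klf4 dEC Nos3 null, 0.427 in Klf4 dEC and 0.407 in Nos3 null, against 0.307 in the control, and its median over all clusters was 0.0140. Klf4 dEC Nos3 null over the control was 1.00 on the log2 scale. That made Cldn15 the 1 of 3 further genes passing the filter that was past the limit, against 14% of all genes. Cldn34c1 averaged 0.467 in intercalated cell-like cluster 14, with 0.511, 0.332, 0.434 and 0.590 in those libraries. Cldn12 was spread over all clusters, from 0.104 to 0.275. Cldn14, a known inhibitor of the Cldn16 pore, averaged 0.0386 in the macula densa-like cluster and was listed at 0 there in Klf4 dEC and in the control. Cldnd1 in cluster 12 was 0.294, 0.127, 0.0797 and 0.529, lower past the limit in the Klf4 dEC and Nos3 null libraries, each over the control. It was 1 of 2 further genes passing the filter in each of these comparisons, against 12% and 23.8% of all genes. Both lower values are under 3 UMIs, which equal 0.216 and 0.119 there, and cannot be told from 0.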
